A study of Mus musculus with 9 samples.

Results

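Trp53 and 9 genes known as direct targets of the p53 protein were followed in 9 libraries of cultured mouse fibroblast RNA. The 10 genes, Trp53, Cdkn1a, Mdm2, Ccng1, Bax, Bbc3, Phlda3, Eda2r, Zmat3 and Sesn2, were chosen by symbol and matched by Ensembl ID among the 51912 genes of the deposited count table, of which 14314 passed the filter on low counts. All 10 passed that filter. The libraries form 3 groups of 3. The bcatKO_CAF group is cancer-associated fibroblasts with the genotype label beta-catenin -/-, the CAF group is cancer-associated fibroblasts labelled wild type, and the NF group is normal fibroblasts labelled wild type. Cancer-associated fibroblasts are the fibroblasts of the tumour stroma. All cells were C57BL/6 and were cultured in DMEM with serum and antibiotics. The labels name no Cre line or other means of deletion, no tumour of origin, no age and no treatment. They also do not say whether the libraries of a group stem from different cultures or mice. The p-values below therefore reflect variation among libraries, which may be technical.

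The p53 protein is a transcription factor that is kept scarce in unstressed cells by the ubiquitin ligase Mdm2, itself a p53 target, so that the pair forms a feedback loop. DNA damage, oncogene signalling and other stresses free p53 from Mdm2, and p53 then binds response elements near its target genes. The targets arrest the cell cycle (Cdkn1a), promote cell death (Bax, Bbc3, Eda2r), restrain growth signalling (Phlda3, Sesn2), act on RNA (Zmat3) or act back on p53 (Mdm2, Ccng1). The activity of p53 is set mainly at the level of its protein, which RNA counts do not measure.

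The binding site of p53, the p53 response element, consists of a pair of decamers, each with the core CNNG. Promoter windows from RefSeq (GRCm38.p6, 250 bases before to 50 after each transcription start) were available for 9 of the 10 genes, in 12 windows, and were searched for 2 abutting decamers with all core bases present. The element reads the same on both strands, so 1 search covers both. With at most 3 mismatches to the consensus outside the cores, a match was present for 4 of the 9 genes, Ccng1, Cdkn1a, Bbc3 and Trp53, against 1.63% of all 27025 genes with a window (1.38% of all windows). With at most 1 mismatch, Ccng1 and Cdkn1a had a match, against 0.0814% of all genes. These 4 stretches are shown because they carry a match to the p53 response element. The gene group was chosen by symbol as p53 and its known direct targets, so a share of matches above that of all genes is no independent result. The motif settings were chosen after the windows were seen. Each stretch is printed 5′ to 3′ on the strand of its gene, with the 20 matching bases in capitals.
Ccng1 (chr11:40755442-40755501, minus strand, 195 to 176 bases before the start, 1 mismatch): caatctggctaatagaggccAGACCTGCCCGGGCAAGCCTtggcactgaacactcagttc
Cdkn1a (chr17:29090908-29090967, plus strand, 51 to 32 bases before the upstream of its 2 starts, 1 mismatch): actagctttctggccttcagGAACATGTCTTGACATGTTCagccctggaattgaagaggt
Bbc3 (chr7:16309466-16309525, plus strand, 97 to 78 bases before the first of its 3 starts, 3 mismatches): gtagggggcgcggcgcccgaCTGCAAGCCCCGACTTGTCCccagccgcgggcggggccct
Trp53 (chr11:69580264-69580323, plus strand, 75 to 56 bases before the start, 3 mismatches): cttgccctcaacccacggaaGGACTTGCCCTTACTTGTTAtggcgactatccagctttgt

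Ccng1, with 1 mismatch, had the largest called fold changes of the 10 genes, as described below. Cdkn1a, also with 1 mismatch, was not called in any comparison, with log2 fold changes of 0.00 to 0.05. Mdm2, with no match, and Zmat3, with no window, were called. A link between matches and levels was not tested. The 225 bases upstream of the annotated exon of Ccng1 (chr11:40755312-40755536, minus strand), with the same 20 bases in capitals, read as follows.
Ccng1 upstream: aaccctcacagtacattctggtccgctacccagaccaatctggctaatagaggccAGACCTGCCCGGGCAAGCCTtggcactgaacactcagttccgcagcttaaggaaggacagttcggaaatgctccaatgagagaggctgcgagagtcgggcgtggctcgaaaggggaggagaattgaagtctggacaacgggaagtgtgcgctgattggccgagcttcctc

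A match is a run of letters and not a measured binding event. The windows of Mdm2, Bax, Phlda3, Eda2r and Sesn2 held no match at this setting, which says only that these letters are not in these windows. Zmat3 was not among the windows.

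Library totals ran from 15433810 to 21893574 counts. Ctnnb1, the beta-catenin gene named in the genotype label, was at 627 to 668 CPM (counts per unit of scaled library size) in bcatKO_CAF, 855 to 882 CPM in CAF and 669 to 799 CPM in NF, and reads from exons outside a deletion would count, so it does not check the label. The 3 CAF libraries lay far from the remaining 6, with Pearson r of log2 CPM across genes of 0.813 to 0.833 against bcatKO_CAF and NF, and NF replicate 1 lay closer to the bcatKO_CAF libraries (r of 0.988 to 0.993) than to NF replicates 2 and 3 (0.942 to 0.956). The 9 fibroblast markers summed to 6523 to 7357 CPM in bcatKO_CAF, 33907 to 52715 CPM in CAF and 4849 to 6346 CPM in NF. Of these, Vim was at 3817 CPM or more in every library, whereas Thy1 was at 1755 to 2187 CPM in CAF and at most 0.633 CPM in the other groups. Col1a1 and Col1a2 made up most of the CAF sum, at 14547 to 25744 and 9253 to 13279 CPM, against at most 335 and 459 CPM elsewhere. Pdgfra was at 505 to 640 CPM in CAF and 193 to 349 CPM elsewhere. Dcn was at 274 to 376 CPM in CAF, but at 379 and 252 CPM in NF replicates 2 and 3. Its level was 17.0 CPM in NF replicate 1 and 6.06 to 90.0 CPM in bcatKO_CAF. The markers other than Vim and Dcn were higher in every CAF library than in all others. Summed over all markers of each list, 6 leukocyte markers were at 18.6 to 25.5 CPM in bcatKO_CAF, 4.54 to 7.23 CPM in CAF and 28.9 to 47.0 CPM in NF, with Cd3e at 0 counts in NF. Cd68 made up most of that sum in bcatKO_CAF and NF, at 18.1 to 23.3 and 19.8 to 37.95 CPM. In CAF, Cd68 was at 1.19 to 1.46 CPM. Csf1r was instead higher in CAF, at 1.77 to 4.26 CPM, against at most 1.54 CPM elsewhere. The 6 epithelial markers were at 0.289 to 0.519 CPM in bcatKO_CAF, 5.27 to 15.3 CPM in CAF and 0.633 to 3.50 CPM in NF. In that order of groups, the 4 endothelial markers were at 1.09 to 1.30, 7.64 to 16.3 and 1.84 to 2.52 CPM, and the 5 melanocyte markers were at 0.514 to 0.623, 1.34 to 6.11 and 0.554 to 2.77 CPM. The 5 mural cell markers were at 547 to 1136, 201 to 289.6 and 159.9 to 812 CPM. Cspg4 made up most of that sum in bcatKO_CAF, at 540 to 1131 CPM, against 84.7 to 100 CPM in CAF and 151 to 803 CPM in NF. Rgs5 averaged 2.11, 0.873 and 3.97 CPM in bcatKO_CAF, CAF and NF. Myh11, Mcam and Abcc9 went the other way. In CAF they were at 30.8 to 92.0, 83.3 to 103 and 1.04 to 1.68 CPM, and at most 0.404, 6.65 and 0.0633 CPM elsewhere. At 0 counts were Krt14 and Krt8 in bcatKO_CAF, Mlana and Tyr in bcatKO_CAF, Tyr in CAF and Mlana in NF. The part of these differences in the results below was not tested. In bulk RNA, fewer cells of a type and less RNA per cell cannot be told apart.

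Of the 10 genes, Ccng1, Mdm2 and Zmat3 were called in a comparison between fibroblast groups when all libraries were in the fit. Cdkn1a, the target most often read as a sign of p53 activity, stayed within 367 to 477 CPM in all 9 libraries. Ccng1 was 2.75-fold higher in CAF than in NF and 0.403-fold as high in bcatKO_CAF as in CAF, and Mdm2 was 1.79-fold higher in bcatKO_CAF than in CAF. Zmat3 was 1.74-fold higher in CAF than in NF. No gene of the 10 differed between bcatKO_CAF and NF past the threshold of the edgeR test with all libraries in the fit. Without NF replicate 1, which lay close to the bcatKO_CAF libraries, 6 of the 10 were called higher in CAF than in NF, beside 23.9% of all genes called higher.

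**Figure D1:**
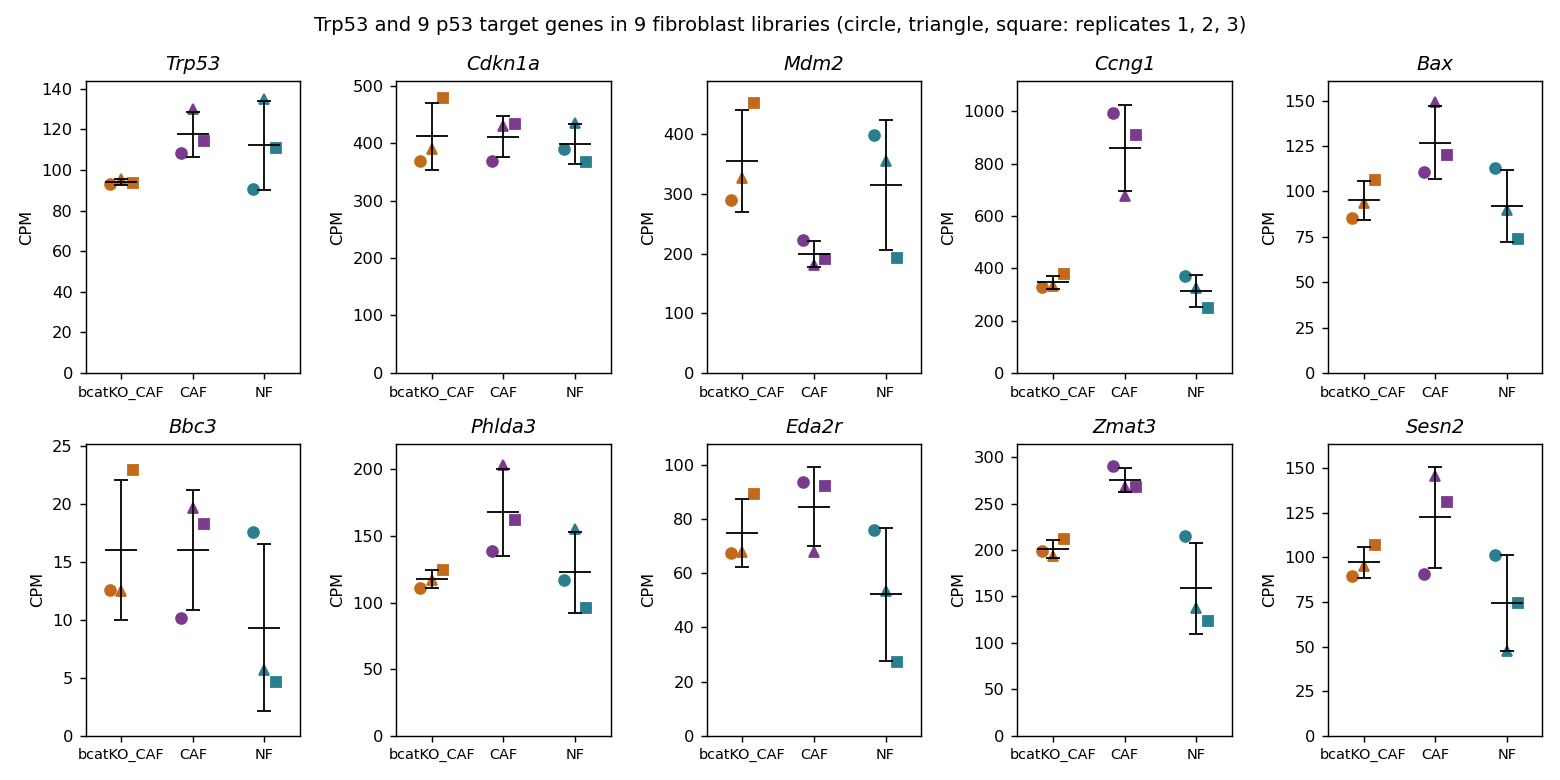
Level of each of the 10 genes in CPM on a linear axis from 0, with 1 point per library (circle, triangle and square for replicates 1, 2 and 3), the group mean as a horizontal bar and the SD of 3 libraries as whiskers. Ccng1 stood at 677 to 995 CPM in CAF and at 247 to 377 CPM in the other 6 libraries, while Cdkn1a lay between 367 and 477 CPM throughout.

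Trp53 (ENSMUSG00000059552, chr11:69580359-69591873, GRCm38), the gene of p53 itself, had counts in every library. Its level in replicates 1 to 3 was 92.9, 95.6 and 93.6 CPM in bcatKO_CAF, 109, 130.1 and 114 CPM in CAF, and 90.8, 135 and 111 CPM in NF. The bcatKO_CAF libraries lay close together and below all CAF libraries, while the NF libraries spanned the values of both groups. The mean was 94.1 ± 1.39 CPM in bcatKO_CAF and 118 ± 11.1 CPM in CAF (SD, n = 3 each), a log2 fold change of -0.32 ± 0.16 (SE) with an edgeR adjusted p of 0.123. Between CAF and NF the log2 fold change was 0.07 ± 0.16 (adjusted p = 0.757), and its sign turned with total counts as the scaling and without NF replicate 1. Trp63 and Trp73, the other genes of the p53 family, did not pass the filter, with at most 0.239 and 0.0426 CPM in any library.

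Mdm2 (ENSMUSG00000020184, chr10:117688875-117710758), which encodes the ubiquitin ligase that marks p53 for degradation, was at 289, 327 and 452 CPM in bcatKO_CAF, 223, 181 and 192 CPM in CAF, and 399, 354 and 193 CPM in NF. All bcatKO_CAF libraries were above all CAF libraries, and NF replicate 3 lay among the CAF values. Mdm2 rose to 356 ± 85.4 CPM in bcatKO_CAF, against 199 ± 21.8 CPM in CAF (SD, n = 3 each), with a log2 fold change of 0.84 ± 0.28 (SE) and an edgeR adjusted p of 0.0326. The call was lost without CAF replicate 1, 2 or 3 or bcatKO_CAF replicate 2 or 3 (adjusted p = 0.0582 to 0.130). Against the NF mean of 315 ± 109 CPM, CAF had a log2 fold change of -0.67 ± 0.27 (adjusted p = 0.0810), and the gene was called lower when NF replicate 3 was left out (-0.92, adjusted p = 0.00793) or when libraries were scaled by total counts (adjusted p = 0.0369).

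Ccng1 (ENSMUSG00000020326, chr11:40748552-40755311) encodes cyclin G1, which recruits the phosphatase PP2A to Mdm2. Its level was 330.2, 332 and 377 CPM in bcatKO_CAF, 995, 677 and 908 CPM in CAF, and 369, 324 and 247 CPM in NF. The lowest CAF library was above every library of the other groups, and the bcatKO_CAF and NF values overlapped. Ccng1 fell to 346 ± 26.2 CPM in bcatKO_CAF, against 860.2 ± 164 CPM in CAF (SD, n = 3 each), a log2 fold change of -1.31 ± 0.20 (SE) with an edgeR adjusted p of 8.07e-04. CAF was higher than NF (313 ± 61.4 CPM) by a log2 fold change of 1.46 ± 0.20 (adjusted p = 4.54e-04). Both calls held in all 13 alternatives of each comparison, with log2 fold changes of -1.47 to -1.18 and of 1.30 to 1.62. An exact permutation test (two-sided) on the library values gave p = 0.1 in either comparison, which is the smallest p that 3 libraries a group allow.

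Cdkn1a (ENSMUSG00000023067, chr17:29090976-29100727) encodes p21, the inhibitor of cyclin-dependent kinases through which p53 stops the cell cycle. Its level was 368, 389 and 477 CPM in bcatKO_CAF, 369, 430.2 and 433 CPM in CAF, and 389, 436 and 367 CPM in NF. The ranges of the 3 groups overlapped. Means were 412 ± 57.9, 411 ± 36.1 and 398 ± 34.7 CPM in bcatKO_CAF, CAF and NF (SD, n = 3 each). Log2 fold changes were 0.00 ± 0.16 (SE) in bcatKO_CAF against CAF, 0.05 ± 0.16 in CAF against NF and 0.05 ± 0.16 in bcatKO_CAF against NF (edgeR adjusted p = 0.991, 0.836 and 0.894). Its highest library was 1.30 times its lowest, the narrowest span of the 10 genes.

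Among the cell death genes, Bax (ENSMUSG00000003873, chr7:45461697-45466898), the pore-forming protein of the mitochondrial outer membrane, was at 85.1, 93.8 and 106 CPM in bcatKO_CAF, 111, 149 and 119.9 CPM in CAF, and 113, 89.8 and 73.5 CPM in NF. The bcatKO_CAF libraries were all below the CAF libraries, and NF replicate 1 was the NF library that reached the CAF range. The log2 fold change was -0.41 ± 0.19 (SE) in bcatKO_CAF against CAF and 0.46 ± 0.19 in CAF against NF, with edgeR adjusted p of 0.10 and 0.0780. Of the Bax exon bases, 12.2% are shared with Gm45808, which had no counts in any library.

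Bbc3 (ENSMUSG00000002083, chr7:16308393-16318205), which encodes the BH3-only death protein PUMA, was the least abundant of the 10 genes. It was at 12.6, 12.5 and 23.0 CPM in bcatKO_CAF, 10.1, 19.7 and 18.3 CPM in CAF, and 17.6, 5.71 and 4.61 CPM in NF. The bcatKO_CAF and CAF values overlapped, and NF replicates 2 and 3 were below all other libraries. The NF mean of 9.31 ± 7.21 CPM became 5.16 CPM without replicate 1. Against NF, the log2 fold change of CAF was 0.79 ± 0.51 (SE, edgeR adjusted p = 0.250), and 1.64 without NF replicate 1 (adjusted p = 0.00632).

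Eda2r (ENSMUSG00000034457, chrX:97333840-97377216), a receptor of the tumour necrosis factor receptor family for the ligand EDA-A2, was at 67.3, 67.7 and 89.4 CPM in bcatKO_CAF, 93.8, 67.9 and 92.1 CPM in CAF, and 76.1, 53.4 and 27.1 CPM in NF. The bcatKO_CAF and CAF values overlapped, and NF replicates 2 and 3 were below both groups. CAF had a log2 fold change of 0.70 ± 0.32 (SE) against NF, with an edgeR adjusted p of 0.116.

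Of the genes that restrain growth signalling, Phlda3 (ENSMUSG00000041801, chr1:135766119-135769136), a PH-domain protein that competes with Akt for membrane lipids, was at 111, 117 and 124 CPM in bcatKO_CAF, 138, 203 and 162 CPM in CAF, and 117, 155 and 95.6 CPM in NF. All bcatKO_CAF libraries were below all CAF libraries, and NF overlapped with both. The log2 fold change in bcatKO_CAF against CAF was -0.52 ± 0.20 (SE, edgeR adjusted p = 0.0648), and the gene was called lower without CAF replicate 1, with DESeq2 and in a fit of these 6 libraries alone (adjusted p = 0.0487, 0.0426 and 0.0185).

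Sesn2 (ENSMUSG00000028893, chr4:132492032-132510501), a sestrin that restrains the growth kinase complex mTORC1 and is also a target of the stress factor ATF4, was at 89.7, 95.4 and 107 CPM in bcatKO_CAF, 90.9, 145 and 131 CPM in CAF, and 101, 47.5 and 74.3 CPM in NF. CAF replicates 2 and 3 were above all other libraries, and CAF replicate 1 lay among the bcatKO_CAF values. Against NF the log2 fold change of CAF was 0.72 ± 0.27 (SE, edgeR adjusted p = 0.0586), which was called in 5 of 13 alternatives (lowest adjusted p = 0.00695, without NF replicate 1).

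Zmat3 (ENSMUSG00000027663, chr3:32334792-32366014), a zinc finger protein that binds RNA, was at 198, 193 and 212 CPM in bcatKO_CAF, 290.4, 268 and 268 CPM in CAF, and 215, 137 and 124 CPM in NF. The CAF libraries were above all others, and NF replicate 1 sat just above the bcatKO_CAF range. Zmat3 rose to 276 ± 12.8 CPM in CAF, against 159 ± 49.1 CPM in NF (SD, n = 3 each), a log2 fold change of 0.80 ± 0.20 (SE) with an edgeR adjusted p of 0.0111, called in all 13 alternatives of that comparison. In bcatKO_CAF against CAF the log2 fold change was -0.45 ± 0.20 (adjusted p = 0.0925).

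**Figure D2:**
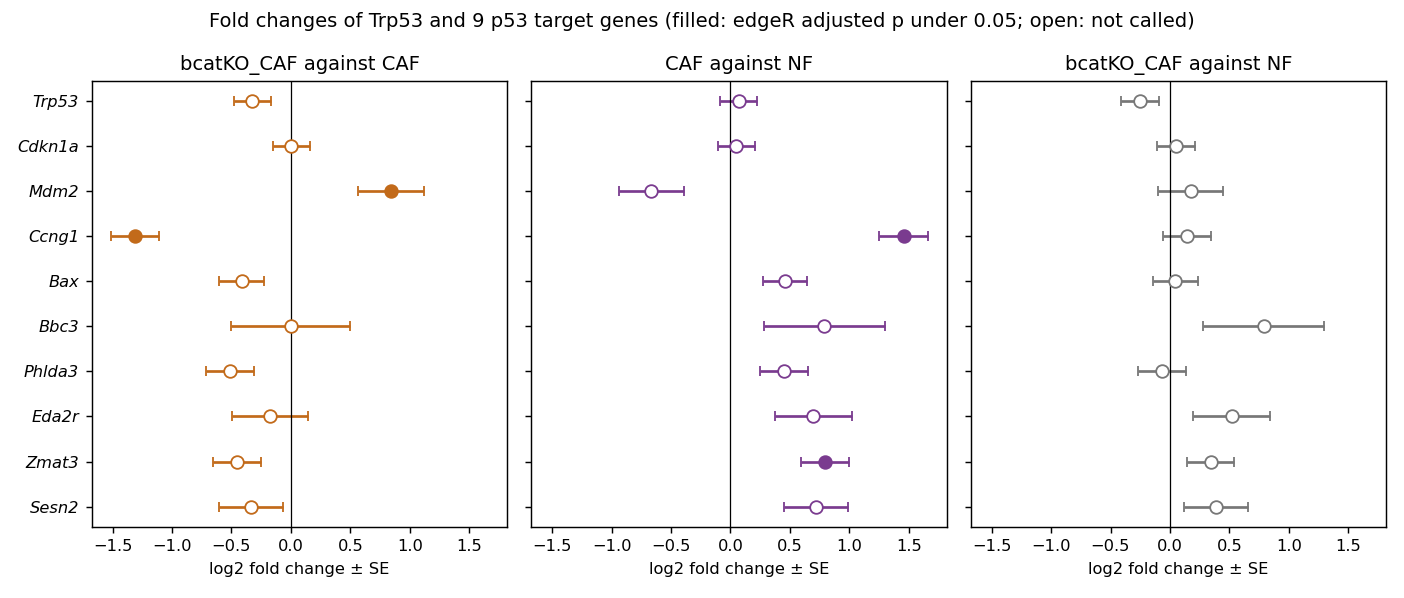
Log2 fold change (horizontal axis) with its SE for each of the 10 genes in the 3 comparisons, with filled points for an edgeR adjusted p under 0.05. Filled points are Ccng1 (-1.31) and Mdm2 (0.84) in bcatKO_CAF against CAF, and Ccng1 (1.46) and Zmat3 (0.80) in CAF against NF.

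In bcatKO_CAF against CAF, 1 of the 10 genes was called higher and 1 lower, and 8 did not pass the test, beside 44.2% of all 14314 genes called (21.5% higher and 22.7% lower). Their median log2 fold change was -0.33, against -0.01 over all genes tested. In 6 of the 10 the libraries of these groups did not overlap, Mdm2 above and Trp53, Ccng1, Bax, Phlda3 and Zmat3 below, beside 65.7% of all genes tested. A fit of these 6 libraries alone called the same 6 genes, 1 higher and 5 lower, beside 56.9% of all 13777 genes tested in that fit. In CAF against NF, 2 of 10 were called higher and 0 lower, beside 39.9% of all genes called (20.0% higher and 19.9% lower). The median log2 fold change was 0.58, against -0.04 over all genes. Of the 10 values 9 were positive, beside 6833 of 14314 over all genes. In 2 genes the groups did not overlap, beside 48.2% of all genes. These comparisons share the CAF libraries. Scaled by total counts, the median of all genes moved to -0.20 in CAF against NF and to 0.12 in bcatKO_CAF against CAF. The median of the 10 genes moved to 0.42 and -0.19. In CAF against NF that scaling left 7 of 10 values positive. It called 2 of the 10 higher and 1 lower, beside 2440 higher and 3701 lower of all genes.

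In bcatKO_CAF against NF, edgeR called 0 of the 10 genes and 0.0% of all genes, and all 10 genes had overlapping groups, beside 6.87% of all genes whose groups did not overlap. At an unadjusted p under 0.05 the counts were 0 of 10 and 702 of 14314. DESeq2 and limma-voom called 6 and 0 genes, none of them among the 10. Log2 fold changes ran from -0.25 for Trp53 to 0.79 for Bbc3. Their SEs were 0.16 to 0.51. In simulated counts for this comparison, edgeR recovered 23.5% of changes of 1 log2 unit, so genes that were not called may still differ.

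NF replicate 1 bears on each value that involves NF. Of the 10 genes, 7 had their NF replicate 1 level within the range of the bcatKO_CAF libraries, and for 7 it was above both other NF libraries. These counts were not made over all genes, so they do not set the 10 genes apart. Across all genes tested, too, this library lay closer to bcatKO_CAF (r of 0.988 to 0.993) than to the other NF libraries (0.942 to 0.956). Without it, 6 of the 10 genes were called higher in CAF than in NF and 0 lower, beside 23.9% of all genes called higher and 45.0% called in either direction in that fit. The 6 were Ccng1, Bax, Bbc3, Eda2r, Zmat3 and Sesn2, with log2 fold changes of 1.60, 0.64, 1.64, 1.08, 1.09 and 1.03. Cdkn1a and Mdm2 did not pass, at 0.05 and -0.45 (edgeR adjusted p = 0.848 and 0.208). In bcatKO_CAF against NF, Bbc3 and Zmat3 were then called higher, with log2 fold changes of 1.64 and 0.64 (adjusted p = 0.0213 and 0.0152), beside 11.0% of all genes called higher. Over the 10 genes, the median absolute log2 difference of that library was 0.0821 from the bcatKO_CAF libraries and 0.542 from the other NF libraries. The source of this likeness was not tested.

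**Figure D3:**
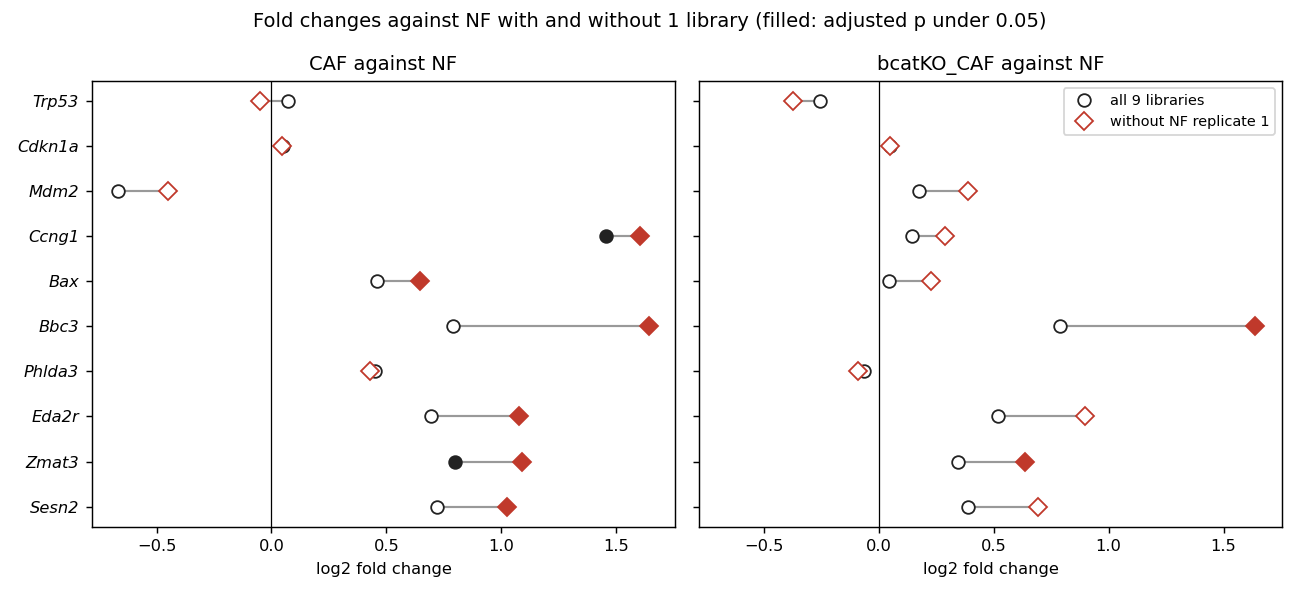
Log2 fold change of each gene against NF (horizontal axis) with all 9 libraries (circles) and without NF replicate 1 (diamonds), filled where the edgeR adjusted p was under 0.05. Without that library Bbc3 moved to 1.64 in both comparisons, and 6 genes were called in CAF against NF.

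Per kilobase of annotated exon, which allows levels of different genes to be compared, Cdkn1a led in bcatKO_CAF and NF and Ccng1 led in CAF. Ccng1 was at 98.6 ± 7.47 CPM per kb in bcatKO_CAF, 245 ± 46.8 CPM per kb in CAF and 89.2 ± 17.5 CPM per kb in NF (SD, n = 3 each). Cdkn1a was at 116 ± 16.3, 116 ± 10.2 and 112 ± 9.78 CPM per kb in bcatKO_CAF, CAF and NF. In CAF the lowest Ccng1 library was above the highest Cdkn1a library, whereas in bcatKO_CAF and NF the ranges of these genes overlapped. Phlda3 had rank 3, Zmat3 rank 8, Eda2r rank 9 and Bbc3 rank 10 in all 3 groups, and in each group the ranges of Phlda3 and Bax were 71.0 to 79.7 and 54.0 to 67.4 CPM per kb (bcatKO_CAF), 88.8 to 130 and 70.3 to 94.7 CPM per kb (CAF) and 61.3 to 99.7 and 46.7 to 71.6 CPM per kb (NF). Bbc3 averaged 7.55 CPM per kb in bcatKO_CAF, 7.55 in CAF and 4.38 in NF. Mdm2 had rank 4 in bcatKO_CAF and NF, at 70.0 and 62.0 CPM per kb, and rank 5 in CAF at 39.1 CPM per kb, where its range overlapped with that of Sesn2 (35.3 ± 8.13).

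Spread within groups differed between genes. The coefficient of variation of Trp53 was 1.48% in bcatKO_CAF, 9.44% in CAF and 19.6% in NF. Bbc3 varied most, with 37.6%, 32.1% and 77.4% in the same order. For the 9 genes other than Cdkn1a the coefficient of variation was highest in NF, and for Cdkn1a it was 14.1% in bcatKO_CAF, 8.78% in CAF and 8.74% in NF.

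Among 21 regulators of p53 outside the 10 genes, 19 were tested, and 4 were higher and 3 lower in bcatKO_CAF than in CAF (7 of 19, beside 44.2% of all genes). In CAF against NF 3 were higher and 1 lower (4 of 19, beside 39.9% of all genes). The median log2 fold changes were 0.29 and -0.33. Scaled by total counts, the regulators had 7 higher and 1 lower in bcatKO_CAF than in CAF, where all genes had 3743 higher and 2686 lower. In CAF against NF that scaling gave 1 higher and 8 lower, where all genes had 2440 higher and 3701 lower. Cdkn2a, whose transcripts encode the Mdm2 inhibitor p19Arf and the kinase inhibitor p16Ink4a, was at 0, 0 and 0.0577 CPM in bcatKO_CAF, 27.3, 40.2 and 41.5 CPM in CAF, and 0.190, 0 and 0 CPM in NF. That is 1 count in bcatKO_CAF and 3 counts in NF, against 2135 in CAF, a ratio of 679.6-fold between CAF and NF (95% counting interval 232 to 3298) and 1916-fold between CAF and bcatKO_CAF (344 to 75721). All 3 NF counts were in replicate 1 and the bcatKO_CAF count was in replicate 3. Without those libraries, CAF was at least 486-fold higher than NF and at least 427-fold higher than bcatKO_CAF, taking 3 counts over the group as the floor. Counts per gene do not separate its transcripts. The kinase genes Prkdc and Atr, which signal DNA damage to p53, rose in bcatKO_CAF against CAF by log2 fold changes of 1.11 ± 0.28 and 1.08 ± 0.29 (SE, edgeR adjusted p = 0.0112 and 0.0132), Atr with its call lost without CAF replicate 2 or bcatKO_CAF replicate 3 (adjusted p = 0.0536 to 0.0596). Mdm4, the partner of Mdm2, was at 104, 115 and 135 CPM in bcatKO_CAF, 57.1, 46.3 and 64.2 CPM in CAF, and 128, 43.7 and 40.4 CPM in NF (adjusted p = 0.0520 in bcatKO_CAF against CAF). The phosphatase gene Ppm1d, a p53 target that shuts the response off, stayed within 15.2 to 20.9 CPM.

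Further p53 targets moved both ways. Of 11 arrest genes, 4 were higher and 5 lower in bcatKO_CAF than in CAF, and 5 higher and 3 lower in CAF than in NF, with medians of -0.30 and 0.73. That is 9 of 11 and 8 of 11 called, beside 44.2% and 39.9% of all genes. Gadd45a, a stress-induced inhibitor of the cell cycle, was at 243, 253 and 331 CPM in bcatKO_CAF, 20.4, 30.7 and 29.7 CPM in CAF, and 367, 60.5 and 24.9 CPM in NF. It rose in bcatKO_CAF against CAF by a log2 fold change of 3.36 (edgeR adjusted p = 0.00952). In CAF against NF its value of -2.48 became -0.66 without NF replicate 1, with the call lost (adjusted p = 0.141). That call was also lost with limma-voom, in a fit of the 6 libraries alone and without any 1 CAF library (adjusted p of 0.0663 and above). Btg2, an antiproliferative gene, had a log2 fold change of -2.05 in bcatKO_CAF against CAF and of 1.79 in CAF against NF. The second value became 1.48 without NF replicate 1 and 2.46 without NF replicate 3.

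Of 14 apoptosis genes, 13 were tested, with 2 higher and 6 lower in bcatKO_CAF than in CAF and 8 higher and 2 lower in CAF than in NF. Their medians were -0.62 and 0.69. In bcatKO_CAF against CAF 21.5% of all genes were higher and 22.7% lower, and in CAF against NF 20.0% were higher and 19.9% lower. The death receptor gene Tnfrsf10b was at 33.0, 30.6 and 33.5 CPM in bcatKO_CAF, 109, 111 and 77.0 CPM in CAF, and 29.4, 21.1 and 14.3 CPM in NF. The autophagy gene Dram1 was at 4.56 to 6.18 CPM in bcatKO_CAF, 26.9 to 31.1 CPM in CAF and 2.85 to 10.2 CPM in NF. Pmaip1, which encodes the BH3-only protein Noxa, went the other way, with log2 fold changes of 0.73 in bcatKO_CAF against CAF and -1.07 in CAF against NF (edgeR adjusted p = 0.0474 and 0.00955), the first lost without CAF replicate 1 or 2 or bcatKO_CAF replicate 1 or 2 (adjusted p = 0.0900 to 0.148). Casp1, the caspase of inflammasomes, was at 24.9 to 33.5 CPM in bcatKO_CAF, 1.29 to 1.91 CPM in CAF and 25.0 to 32.2 CPM in NF.

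Of 20 genes of repair and metabolism, 5 were higher and 7 lower in bcatKO_CAF than in CAF, and 5 higher and 3 lower in CAF than in NF, with medians of 0.27 and 0.20 (12 of 20 and 8 of 20 called, beside 44.2% and 39.9% of all genes). Def6 was at 0.986 to 1.67 CPM in bcatKO_CAF, 19.0 to 30.1 CPM in CAF, and 0.738 to 1.02 CPM in NF. All CAF libraries were above all others, with log2 fold changes of -4.30 in bcatKO_CAF against CAF and 4.78 in CAF against NF (edgeR adjusted p = 7.83e-06 and 4.98e-06). Ddit4, which encodes the mTORC1 inhibitor REDD1, was at 36.0 to 53.9 CPM in bcatKO_CAF, 133 to 181 CPM in CAF and 40.7 to 91.0 CPM in NF. Its log2 fold changes were -1.66 and 1.29 (edgeR adjusted p = 0.00192 and 0.00697). Gdf15, a secreted stress cytokine, was at 97.5, 96.3 and 152 CPM in bcatKO_CAF, 1.51, 3.47 and 3.06 CPM in CAF, and 122, 25.0 and 5.29 CPM in NF. Its log2 fold change was 5.42 in bcatKO_CAF against CAF (edgeR adjusted p = 0.00225) and -4.23 in CAF against NF (adjusted p = 0.00676), or -2.50 without NF replicate 1, and limma-voom did not call the second (adjusted p = 0.0665). Rrm2b, the p53-induced subunit of ribonucleotide reductase, was at 25.4 to 28.5 CPM in bcatKO_CAF, 10.7 to 14.4 CPM in CAF and 17.0 to 25.5 CPM in NF, and rose in bcatKO_CAF against CAF (log2 fold change 1.07, adjusted p = 0.00218). Over the 4 lists together, 63 genes were tested. Of these, 15 were higher and 21 lower in bcatKO_CAF than in CAF (median log2 fold change 0.10), beside 44.2% of all genes called. In CAF against NF, 21 were higher and 9 lower (0.18), beside 39.9% of all genes called. Between bcatKO_CAF and NF, edgeR called 0, and 2 had an unadjusted p under 0.05. Without NF replicate 1, 19 of 64 tested genes of these lists were called there, beside 2659 of 14759 over all genes. With all libraries scaled by total counts, 19 of the 63 were higher and 17 lower in bcatKO_CAF than in CAF. In CAF against NF, 15 were then higher and 19 lower. That scaling moved the all-gene counts as stated for the regulators.

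**Figure D4:**
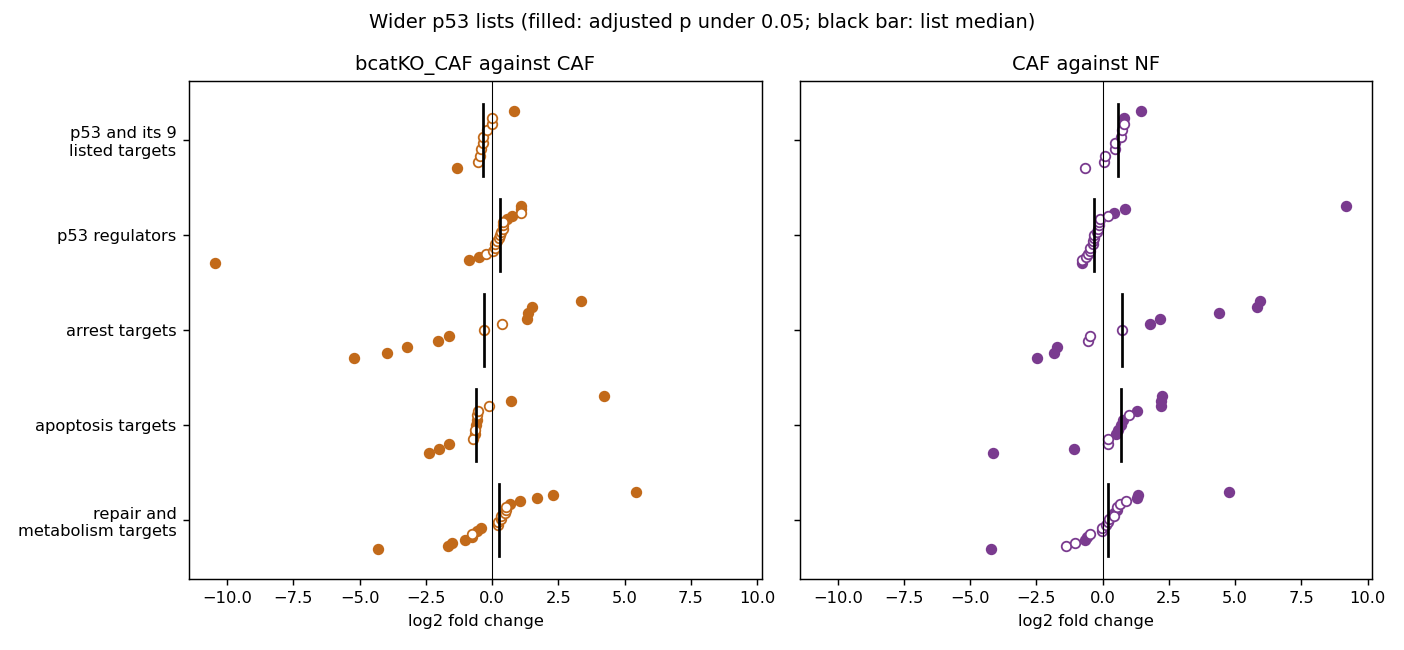
Log2 fold change (horizontal axis) of each tested gene of the 10-gene group and of 4 wider p53 lists, filled where the edgeR adjusted p was under 0.05, with the list median as a black bar. The far point among the regulators is Cdkn2a, and the arrest targets lie on both sides of 0 in both comparisons.

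By the root mean square difference of centred log2 CPM over the 9 libraries, ranked among 10372 genes with a mean of at least 5 CPM, the genes with a pattern most like that of Trp53 were Psmd9, U2af2 and Otub1 (0.0478, 0.0514 and 0.0554). For Cdkn1a they were Acad8, Tubgcp3 and Eral1 (0.0722, 0.0762 and 0.0773), and for Mdm2 they were Osgin2, Ylpm1 and Tent4b (0.0982, 0.107 and 0.146). The libraries share their group structure, so such likeness describes these 9 values only.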

How the data were processed

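Total RNA from cultured cells was turned into Illumina libraries, per the labels' protocols. The authors deposited raw read counts per gene, unnormalised, and 0 values differed between the series table and the tables of single samples. The submitters' processing notes list bcl2fastq, TopHat, edgeR and build mm10, without versions. How reads were assigned to genes, with which strand setting and annotation, is not stated in the sources used here. Symbols (51719 of 51912 IDs), positions and exon lengths came from GENCODE M21 (GRCm38).

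Replicates were numbered in record order and pair no samples. In edgeR 4.0.16 (R 4.3.3), genes passing filterByExpr were TMM-scaled and entered 1 quasi-likelihood fit of all 9 libraries with group as the only term. P-values were Benjamini-Hochberg adjusted over all genes tested and called under 0.05. Each SE is the log2 fold change divided by the root of its F. CPM values use TMM-scaled library sizes. Counting intervals (95%) are exact and leave out variation between samples. Alternatives were RLE scaling, total counts, no filter, a minimum of 1 CPM in 3 libraries, DESeq2 1.42.0, limma-voom (limma 3.58.1), a fit of the 6 libraries compared, and each library left out. The code was tested on simulated counts.

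The 10 genes, the wider lists and the tests were chosen with earlier results of these data known, and the motif settings after the windows were seen. From each wider list, up to 5 called genes per comparison with a mean of at least 5 CPM could be named, largest change first, plus Mdm4, Cdkn2a and Ppm1d. Trp63, Trp73, Aen, Tigar and Sesn1 were chosen after their values or windows were seen.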

Additional observations from a re-analysis of the deposited data

How the results depend on the processing

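No paired analysis was possible because the labels give the libraries no replicate numbers. The 10 genes in 3 comparisons under 13 alternatives gave 390 values. Of these, 341 kept their sign and their side of the threshold, 25 changed sign, 19 were called only in the alternative and 5, all of Mdm2 in bcatKO_CAF against CAF, were no longer called. The cause was not tested. Leaving out 1 library at a time gave 1 to 2 called genes of the 10 in bcatKO_CAF against CAF, 2 to 6 in CAF against NF and 0 to 2 in bcatKO_CAF against NF. The shares of all genes called in the first 2 were 33.5% to 36.2% and 32.1% to 45.0%. A fit of only the 6 libraries gave 6 called in bcatKO_CAF against CAF, beside 56.9% of all genes. In bcatKO_CAF against NF, leaving out 1 library gave 0 to 19 called genes of the wider lists and 0 to 2659 of all genes, the highest without NF replicate 1, while no filter gave 1 and DESeq2 gave 6 of all genes.

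The sign changes were among log2 fold changes near 0 that were not called. In CAF against NF, total counts gave -0.10 for Trp53 and -0.12 for Cdkn1a, and leaving out 1 library gave -0.049 to 0.22 for Trp53 and -0.005 to 0.13 for Cdkn1a. In bcatKO_CAF against CAF, Cdkn1a was at -0.012 with RLE scaling and DESeq2, at -0.0028 with the CPM minimum and at -0.0024 with limma-voom, and Bbc3 was at 0.13 with total counts, 0.021 with no filter and 0.0086 in the fit of 6 libraries. Leaving out 1 library there gave -0.12 to 0.081 for Cdkn1a and -0.36 to 0.16 for Bbc3. In bcatKO_CAF against NF, leaving out 1 library gave -0.061 to 0.13 for Cdkn1a, -0.083 to 0.39 for Mdm2, -0.0007 to 0.29 for Ccng1, -0.093 to 0.23 for Bax and -0.22 to 0.14 for Phlda3.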

Other observations

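With at most 3 mismatches, p53 response element matches were also present in the promoter windows of 1 of 10 apoptosis genes (Aen), 2 of 17 genes of repair and metabolism (Sesn1 and Tigar), 1 of 19 regulators (Trp73) and 0 of 8 arrest genes. With at most 1 mismatch, no gene of these lists had a match. Aen, a nuclease that promotes apoptosis, was at 47.1, 51.3 and 60.2 CPM in bcatKO_CAF, 69.5, 86.5 and 73.2 CPM in CAF, and 62.3, 49.6 and 30.6 CPM in NF. The CAF libraries were above all others, with an edgeR adjusted p of 0.0452 against NF and of 0.0976 for bcatKO_CAF against CAF. Tigar, which lowers the flow of sugar through glycolysis, was at 14.6, 14.2 and 13.5 CPM in bcatKO_CAF, 24.6, 22.7 and 24.3 CPM in CAF, and 14.5, 22.4 and 15.6 CPM in NF. It fell in bcatKO_CAF against CAF (log2 fold change -0.76, adjusted p = 0.00934). Sesn1, a sestrin like Sesn2, was at 5.65 to 7.32 CPM in bcatKO_CAF, 7.35 to 14.9 CPM in CAF and 5.78 to 8.06 CPM in NF, and was not called in either comparison with CAF (adjusted p = 0.0571 and 0.0877).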
